A study of Homo sapiens with 24 samples.

Results

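The respiratory chain genes described here are 50 genes taken by symbol from the 60671 genes listed in each count table. They comprise all 13 protein genes of the mitochondrial genome and 37 nuclear genes for subunits of complexes I to IV. By complex, 25 belong to complex I, 4 to complex II, 7 to complex III, 12 to complex IV and 2, both mitochondrial, to complex V. All 50 were found in both tables. Their polyadenylated RNA was sequenced in 24 libraries, 3 in each of 8 groups, from H1 and H9, both established human embryonic stem cell lines. In H1 the groups were CARHSP1 knockdown and nontargeting control in primed cells, ZNF8 knockdown and nontargeting control in naive cells, and ZIC2 knockdown and nontargeting control in ectoderm on day 2. Doxycycline is given as the treatment of all 18 H1 libraries, the knockdowns and the controls alike. The H9 groups were naive and primed cells, for which the labels list neither a construct nor a treatment. StemFlex is the only medium named, and no label says how the naive cells were cultured, how a knockdown was made or whether a line was 1 clone. No label says that replicates came from separate cultures; p-values therefore speak only to how these libraries spread, and that spread may be technical.

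The respiratory chain passes electrons from NADH (complex I) and succinate (complex II) through ubiquinone, complex III and cytochrome c to oxygen at complex IV, and pumps the protons that drive ATP synthase (complex V). Its membrane-embedded core subunits are encoded in the mitochondrial genome, which is copied into long RNAs from both strands and cut into separate messages, most of them polyadenylated, while the other subunits come from nuclear genes under factors such as NRF1 and GABPA. Primed pluripotent cells are known for strong glycolysis, and naive cells for a larger use of respiration.

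Both genomes are shown in sequence because transcripts of the 2 were compared throughout. MT-ATP8 and MT-ATP6 share 46 bases at chrM:8527-8572 on the plus strand (GENCODE 29, GRCh38), which is 22.2% of the 207 bases of MT-ATP8, so reads there cannot be given to either with certainty. The capitals mark the start codon of MT-ATP6 and the stop codon of MT-ATP8.
MT-ATP8 and MT-ATP6 overlap: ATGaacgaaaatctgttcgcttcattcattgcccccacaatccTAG
RefSeq promoter windows on GRCh38.p14, 300 bases long, were matched to 30 of the 37 nuclear genes by symbol. The ETS motif of GABPA (CCGGAAG, either strand) was present in 10 of the 30 windows (33.3%), against 10.7% of all 27305 promoters and 14.2% of the 15842 promoters of coding genes. The NRF1 motif, a palindrome of 10 letters spelled by the capitals in the window of NDUFA8 and searched as such, was present in 2 of 30 (6.67%), against 1.36% of all promoters and 1.75% of those of coding genes. A match is a description and not a binding site. In naive H1 controls 5 of the 10 genes with the ETS motif rose and 2 fell, against 9 and 6 of the 20 with a window lacking it. In naive H9 cells 9 of the 10 rose, against 15 of the 20, and 0 fell in either set. Of all genes tested 35.0% rose and 36.1% fell in naive H1 controls, and 25.4% and 26.1% in naive H9 cells. Whether the motif went with these changes was not tested. The 4 windows below are those of both genes with the NRF1 motif, NDUFA8 and SDHD, and of NDUFA1 and COX4I1, which hold the ETS motif and rose in naive cells of both lines. They are written in the direction of transcription with the motifs in capitals, and both motifs occur in the window of SDHD.
NDUFA8, chr9:122159730-122160029, minus strand: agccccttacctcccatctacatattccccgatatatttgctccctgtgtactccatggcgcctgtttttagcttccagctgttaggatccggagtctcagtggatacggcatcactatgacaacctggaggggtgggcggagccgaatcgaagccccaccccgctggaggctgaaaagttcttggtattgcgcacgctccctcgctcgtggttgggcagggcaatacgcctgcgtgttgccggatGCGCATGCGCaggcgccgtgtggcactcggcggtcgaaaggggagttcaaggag
SDHD, chr11:112086623-112086922, plus strand: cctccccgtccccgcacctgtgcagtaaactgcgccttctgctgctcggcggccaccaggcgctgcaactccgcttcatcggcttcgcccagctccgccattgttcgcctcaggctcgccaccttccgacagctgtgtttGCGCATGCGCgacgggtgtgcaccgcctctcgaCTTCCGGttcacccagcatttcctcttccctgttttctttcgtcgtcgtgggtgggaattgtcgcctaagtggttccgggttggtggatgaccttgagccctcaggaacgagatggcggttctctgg
NDUFA1, chrX:119871582-119871881, plus strand: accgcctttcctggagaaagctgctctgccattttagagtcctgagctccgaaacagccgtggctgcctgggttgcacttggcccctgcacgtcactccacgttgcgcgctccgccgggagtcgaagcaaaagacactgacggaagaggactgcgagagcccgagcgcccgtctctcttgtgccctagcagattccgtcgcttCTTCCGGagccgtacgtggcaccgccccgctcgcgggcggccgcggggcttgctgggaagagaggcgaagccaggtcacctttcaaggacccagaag
COX4I1, chr16:85799445-85799744, plus strand: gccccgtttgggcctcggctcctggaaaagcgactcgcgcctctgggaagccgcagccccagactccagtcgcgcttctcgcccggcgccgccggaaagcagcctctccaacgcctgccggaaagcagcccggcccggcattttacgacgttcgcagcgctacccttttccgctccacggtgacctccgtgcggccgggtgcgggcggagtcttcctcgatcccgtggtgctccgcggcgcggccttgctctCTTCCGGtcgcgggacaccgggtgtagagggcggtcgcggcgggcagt

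Libraries held between 6756704 and 20773963 counts. CARHSP1 fell 7.81-fold and ZIC2 fell 2.08-fold in their knockdowns (adjusted p = 8.36e-29 and 1.18e-10 in edgeR), whereas ZNF8 RNA had a log2 change of -0.32 ± 0.13 (SE) with an adjusted p of 0.0664 and did not pass. Libraries held 18.2 to 20.8 CPM of CARHSP1 in its knockdown, against 148 to 152 CPM in controls. For ZIC2 they held 264 to 272 CPM, against 497 to 620 CPM, and for ZNF8 15.48 to 17.83 CPM, against 17.84 to 23.53 CPM. The summed level of 11 naive markers was 783 to 816 CPM in naive H1 controls, against 43.9 to 55.0 CPM in primed H1 controls, and 281 to 296 CPM in naive H9 cells, against 27.7 to 32.8 CPM in primed H9 cells. KLF17, a defining naive marker, averaged 10.8 CPM in naive H1 controls but only 0.068 CPM in naive H9 cells. The summed level of 8 ectoderm markers was 577 to 643 CPM in ectoderm controls, against 6.26 to 9.53 CPM in primed H1 controls, while PAX6 averaged 2.25 CPM and RAX and HES5 had no counts in ectoderm. The 6 core pluripotency markers summed to 6155 to 6608 CPM in ectoderm controls, against 4975 to 5136 CPM in primed H1 controls. Of these 3 were higher and 3 lower in ectoderm, with POU5F1 at 444 and 1402 CPM and NANOG at 3.92 and 132 CPM. Of all genes tested 30.7% rose and 32.1% fell there.

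Every library gave at least 1246 counts for each mitochondrial gene, while the lowest nuclear count was 5. Copies named for 35 of the 50 genes were also counted, and 29 genes overlap another gene, 24 of them nuclear. For most these copies hold few counts, but counts of the copies came to 183% of those of NDUFV2, 117% of those of SDHA, 9.38% of those of COX6A1, 8.37% of those of MT-ATP6 and 3.70% of those of MT-ND2, so the values of these genes are uncertain. Per length (TPM, with the deposited gene lengths), mitochondrial mRNAs stood far above the nuclear ones. In primed H1 controls the level ran from 6022 TPM for MT-ND3 to 36622 TPM for MT-CO2, with a median of 13383 TPM, against 2.07 TPM for NDUFV2 to 610.3 TPM for COX8A and a median of 83.4 TPM among nuclear genes. MT-CO2 averaged 36622 ± 653 TPM in these cells and MT-CO3, next in order, 33381 ± 368 TPM (SD, n = 3). MT-CO2 or MT-CO3, core subunits of cytochrome c oxidase, came first in all 5 of the control and H9 groups.

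The 13 mitochondrial mRNAs took a share of all counts that fell to 2.01% ± 0.20 in ectoderm, against 5.59% ± 0.13 in primed H1 controls (SD, n = 3 each), a ratio of 0.36. In ZNF8 knockdown naive cells the share was 6.61% ± 0.49, against 5.56% ± 0.29 in their controls, and in naive H9 cells 6.30% ± 0.07, against 4.91% ± 0.26 in primed H9 cells. In each of these 3 comparisons the 3 libraries of one group lay beyond the 3 of the other. The share was 5.77% ± 0.35 in CARHSP1 knockdown, against 5.59% ± 0.13 in its controls, 1.79% ± 0.22 in ZIC2 knockdown, against 2.01% ± 0.20 in its controls, and 5.56% ± 0.29 in naive H1 controls, against 5.59% ± 0.13 in primed H1 controls, and all of these overlapped. The 37 nuclear genes took 0.449% ± 0.032 of counts in naive H9 cells, against 0.339% ± 0.036 in primed H9 cells, and 0.384% ± 0.005 in naive H1 controls, against 0.317% ± 0.001 in primed H1 controls. Their share was lower in ectoderm controls (0.297% ± 0.009) than in primed H1 controls, and lower again in ZIC2 knockdown (0.2755% ± 0.004). Libraries did not overlap in these 4 comparisons. They did in ZNF8 knockdown (0.393% ± 0.007) and CARHSP1 knockdown (0.317% ± 0.006), each against its controls. In a 2-sided exact permutation test 3 libraries against 3 cannot go below p = 0.1, and over the 12 shares compared the smallest adjusted p was 0.171.

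**Figure D1:**
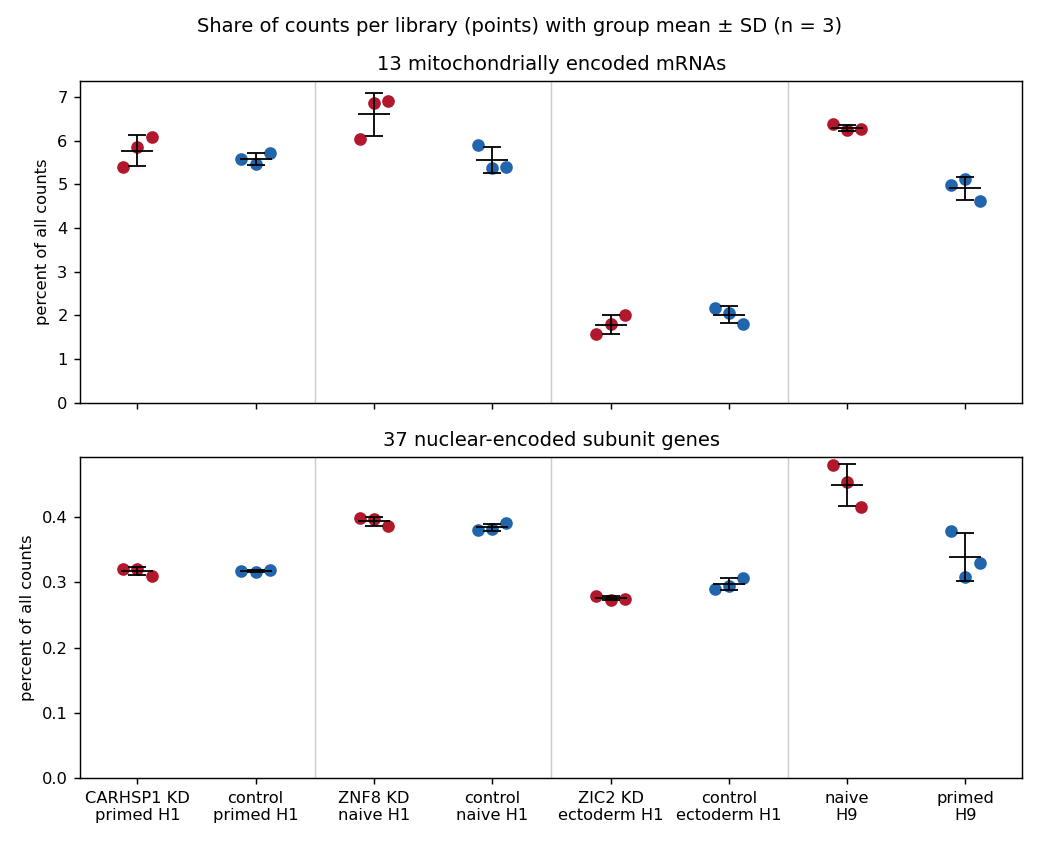
Percent of all counts per library (y axis) in the 13 mitochondrially encoded mRNAs (top) and the 37 nuclear subunit genes (bottom) for the 8 groups (x axis); points are libraries, and bars are the mean ± SD (n = 3). The mitochondrial share is near 2% in both ectoderm groups and between 4.62% and 6.92% in all others.

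Day 2 ectoderm was compared with primed H1 cells, both nontargeting controls. All 13 mitochondrial genes fell, by log2 changes between -2.02 and -0.97 (median -1.52), while 32.1% of all genes tested fell. MT-ND1, in the membrane arm of complex I, had 546, 531 and 464 CPM in ectoderm, against 2069.5, 2006 and 2103 CPM in primed controls. MT-ND2, its neighbour on the map, had 848, 739 and 658 CPM in ectoderm, against 2838, 2797 and 2991 CPM in primed controls. MT-ND3, also of complex I, had 180.3, 170.2 and 163 CPM in ectoderm, against 599, 572 and 624 CPM in primed controls. All ectoderm libraries lay below all primed libraries for these 3 genes, as for the other 10. The share of all genes tested whose libraries separated in this way was not computed, here or in the other comparisons. The log2 changes were -2.02 ± 0.06 for MT-ND1, -1.96 ± 0.06 for MT-ND2 and -1.82 ± 0.06 for MT-ND3 (SE), with adjusted p-values of 1.71e-22, 5.8e-21 and 2.49e-21 by the quasi-likelihood test of edgeR, Benjamini-Hochberg adjusted. The fall was smallest for MT-ND4L (-0.97 ± 0.05), MT-ATP8 (-1.0 ± 0.06) and MT-ND5 (-1.07 ± 0.06). MT-ATP6, read from the same message as MT-ATP8, changed by -1.64, and MT-ND4L overlaps MT-ND4 by 7 bases. Differences within these pairs cannot be taken as differences between separate messages. MT-ND6, on the opposite strand from the other 12, changed by -1.52 ± 0.08, the median of the 13. The 2 mitochondrial ribosomal RNAs fell as well, MT-RNR1 by -1.28 ± 0.08 and MT-RNR2 by -0.57 ± 0.05. All 13 calls held under every alternative run, among them leaving the mitochondrial genes out of the library sizes. In bulk RNA, fewer cells of a type and less RNA per cell cannot be told apart, and selection for poly(A) tails means that shorter tails and fewer molecules cannot be told apart either.

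**Figure D2:**
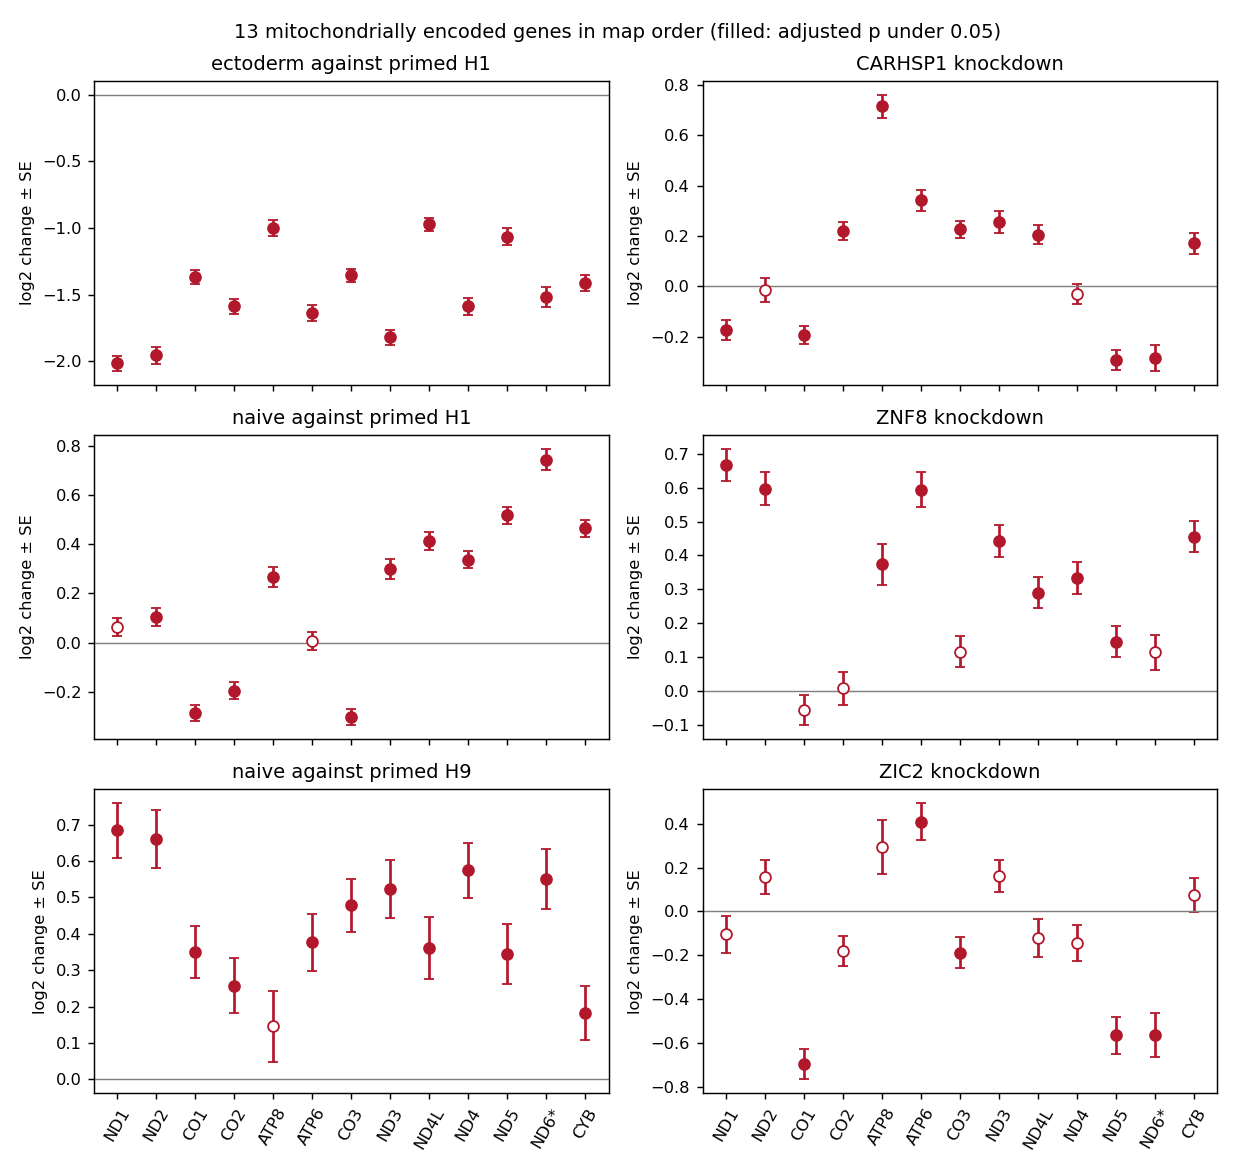
Log2 change ± SE (y axis; scales differ between panels) of the 13 mitochondrial genes in the order of the mitochondrial map (x axis; MT-ND6, with an asterisk, is on the opposite strand) in each of the 6 comparisons; filled points have an adjusted p under 0.05. In ectoderm all 13 points lie below 0, whereas the CARHSP1 and ZIC2 knockdowns and naive H1 cells hold points on both sides.

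Among the 37 nuclear genes, 8 rose and 19 fell in ectoderm, with a median log2 change of -0.25, while 30.7% of all genes tested rose and 32.1% fell. The lower members included iron-sulphur and flavin subunits of complexes I and II. NDUFS7, an iron-sulphur subunit next to the ubiquinone site of complex I, had 4.49, 2.75 and 3.41 CPM in ectoderm, against 13.4, 12.8 and 11.1 CPM in primed controls. NDUFS8, its iron-sulphur partner, had 20.8, 16 and 19 CPM in ectoderm, against 47.3, 44.6 and 45.8 CPM in primed controls. SDHA, the flavoprotein of succinate dehydrogenase, had 8.54, 11.7 and 10.6 CPM in ectoderm, against 25.1, 22.9 and 24.7 CPM in primed controls. None of the 3 overlapped between groups, with log2 changes of -1.85 ± 0.22, -1.33 ± 0.11 and -1.24 ± 0.14 (SE; edgeR adjusted p = 2.75e-08, 2.97e-11 and 1.61e-08), the last -0.81 with the copies of SDHA added. Of complex II, SDHA, SDHB (-0.42 ± 0.08) and SDHD (-0.25 ± 0.09) fell, while SDHC, a membrane anchor of the same 4-subunit enzyme, rose; the call of SDHD was lost without ectoderm replicate 1 or 2 or primed replicate 3. SDHC had 57.9, 67.5 and 69.8 CPM in ectoderm, against 48.3, 44.1 and 37 CPM in primed controls (0.59 ± 0.10, adjusted p = 6.26e-06 in edgeR). NDUFA1, a small membrane-arm subunit needed to assemble complex I, had 59.5, 62.8 and 79.5 CPM in ectoderm, against 46.4, 49.9 and 46 CPM in primed controls. UQCRB, which lies at a ubiquinone site of complex III, had 256, 245 and 283 CPM in ectoderm, against 180.0, 187 and 208 CPM in primed controls. Both rose without overlap, by 0.50 ± 0.09 and 0.44 ± 0.06. Complex IV divided likewise, 5 of its 9 nuclear subunits falling, COX8A the most (-0.96 ± 0.08), and COX6C alone rising (0.42 ± 0.07).

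The log2 changes of nuclear genes in ectoderm went with GC content. Spearman's rho with the GC content of the longest transcript was -0.61 over the 37 nuclear members and -0.35 over the 15326 genes of this fit with a GC value; these correlations are across genes of the same libraries, which are not independent replicates. With a GC and length trend removed per library, the nuclear median was -0.07 and 24 of the 27 calls held. NDUFB8, UQCRC1 and CYC1, the subunits that lost theirs, are a membrane-arm subunit of complex I, a core protein and cytochrome c1 of complex III, and the signs of UQCRC1 and CYC1 turned to 0.04 and 0.09. The mitochondrial median was -1.55 and all 13 calls held with the trend removed. The part of GC content in the nuclear result was not tested further. The fibroblast and feeder list summed to 130.3 to 146 CPM in ectoderm, against 277 to 294 CPM in primed controls, with all 4 genes tested lower and LUM, DCN, COL3A1 and POSTN at 0 in ectoderm; its part was not tested.

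**Figure D3:**
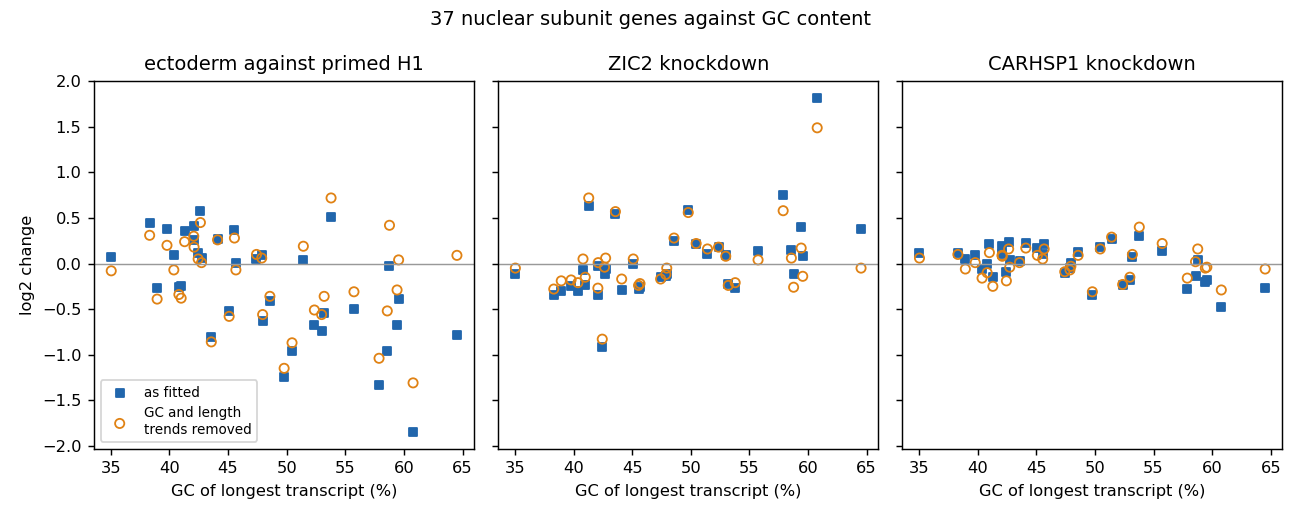
Log2 change (y axis) of the 37 nuclear subunit genes against GC content of the longest transcript in percent (x axis) for ectoderm against primed H1, ZIC2 knockdown and CARHSP1 knockdown; squares are values as fitted and open circles values with GC and length trends removed. Squares fall to the right in ectoderm (rho -0.61) and in CARHSP1 knockdown (rho -0.38) and rise to the right in ZIC2 knockdown (rho 0.56).

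Other genes of the pathway were mixed in ectoderm, where 30.7% of all genes tested rose and 32.1% fell. Their counts and changes are as fitted. The part in them of the GC trend over all genes of this fit (rho -0.35) was not tested. Of 18 further complex I subunits tested, 1 rose and 10 fell, led by NDUFB7 (-1.26 ± 0.12), NDUFA3 (-0.87 ± 0.10) and NDUFS6 (-0.55 ± 0.09). Of 15 nuclear ATP synthase subunits, 3 rose and 5 fell, ATP5F1D of the central stalk by -2.15 ± 0.13 and the membrane subunit ATP5ME by -1.09 ± 0.10. POLRMT, the RNA polymerase of mitochondria, had 25.8 ± 1.35 CPM in ectoderm and 60.1 ± 2.14 CPM in primed controls (SD, n = 3 each; -1.23 ± 0.10, edgeR adjusted p = 3.62e-12), and POLG, the mitochondrial DNA polymerase, changed by -0.60 ± 0.09. Of 18 genes for processing and stability of mitochondrial RNA, 3 rose and 7 fell. Those that fell included TBRG4 (-0.97 ± 0.08), of the FASTK family that acts on mitochondrial RNA, and SLIRP (-0.72 ± 0.08), which stabilises mitochondrial mRNAs with LRPPRC. The exonuclease REXO2 (-0.72 ± 0.10) fell too. Of the 12 genes for mitochondrial DNA transcription and replication, 4 rose and 3 fell, with the nuclease MGME1 rising by 0.51 ± 0.07. Of 9 nuclear regulators of respiratory genes 2 rose and 4 fell, among the latter ESRRA by -1.19 ± 0.17 and PPRC1 by -0.43 ± 0.06.

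Naive against primed H9 cells asks how the 2 pluripotent states differ. Of the mitochondrial genes 12 of 13 rose and of the nuclear genes 31 of 37, and none fell in edgeR (1 at an unadjusted p under 0.05, 0 in DESeq2), while 25.4% of all genes tested rose and 26.1% fell. The medians were 0.38 for mitochondrial and 0.47 for nuclear genes, against 0.00 over all 15761 genes tested. MT-ND1 had 3189.5, 3199.9 and 3025 CPM in naive H9 cells, against 1933, 2034 and 1856 CPM in primed H9 cells. MT-ND2 had 3748, 3526 and 3494 CPM in naive H9 cells, against 2367, 2367 and 2037 CPM in primed H9 cells. MT-ND4, a proton-pumping subunit of complex I, had 10711, 10096 and 10684 CPM in naive H9 cells, against 7111, 7377 and 6533 CPM in primed H9 cells. The naive libraries lay above all primed libraries in each, with log2 changes of 0.68 ± 0.07, 0.66 ± 0.08 and 0.57 ± 0.07 (SE; edgeR adjusted p = 3.43e-07, 1.27e-06 and 3.22e-06). All 7 mitochondrial complex I genes and all 3 of complex IV rose, and MT-CYB too (0.18 ± 0.07), a call lost without any 1 of the libraries other than primed replicate 2. MT-ATP8 (0.15 ± 0.10, adjusted p = 0.222) did not pass in edgeR.

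NDUFS7 was the nuclear gene with the largest rise, with 11.4, 19.1 and 13.4 CPM in naive H9 cells, against 4.12, 2.72 and 7.71 CPM in primed H9 cells. NDUFV1, the flavin subunit that takes electrons from NADH, had 223, 245 and 208 CPM in naive H9 cells, against 88.3, 75.7 and 99 CPM in primed H9 cells. NDUFB8, of the membrane arm, had 25.8, 21.9 and 21.9 CPM in naive H9 cells, against 14.2, 8.98 and 8.62 CPM in primed H9 cells. All 3 were separate between groups, by 1.55 ± 0.26, 1.35 ± 0.10 and 1.10 ± 0.17 (SE; edgeR adjusted p = 6.37e-05, 1.71e-09 and 2.32e-05). All 4 genes of complex II rose, by 0.34 to 0.67, and 4 of 6 nuclear genes of complex III; the call of SDHA was lost without naive replicate 1 or 2 or primed replicate 2. In complex IV 8 of 9 rose, COX5B, which binds zinc, by 0.97 ± 0.11 and COX4I1, which binds ATP, by 0.80 ± 0.10. COX7C was the exception, with 413, 367 and 325 CPM in naive H9 cells, against 503, 384 and 394 CPM in primed H9 cells (-0.22 ± 0.10, edgeR adjusted p = 0.0833). The others that did not pass were NDUFS4 (0.16), NDUFS8 (0.10), NDUFV2 (-0.22), UQCRFS1 (0.25) and UQCRQ (0.14). Primed H9 replicate 1 stood above replicates 2 and 3 in its nuclear share, at 0.379% against 0.308% and 0.330%. With GC and length trends removed, the mitochondrial median was 0.18, MT-ND5, MT-CYB and MT-CO2 lost their calls, the nuclear median was 0.49 with all 31 calls held, and COX7C fell by -0.39. The 8 trophoblast markers summed to 109.3 to 109.9 CPM in naive H9 cells, against 32.3 to 40.5 CPM in primed H9 cells. Of the 3 tested, TFAP2C (103 CPM in naive and 23.2 CPM in primed H9 cells) and GATA2 (3.63 and 0.352 CPM) were higher and KRT7 (1.82 and 12 CPM) was lower, while GATA3 stood at 0.329 and 0.210 CPM, VTCN1 was at 0 in naive H9 cells and CGA at 0 in both. The fibroblast and feeder list of 7 genes summed to 152 to 178 CPM in naive H9 cells, against 261 to 347 CPM in primed H9 cells, with COL1A2 higher and COL1A1 and PDGFRB lower of the 3 tested. The part of other cell types in these changes was not tested.

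Further subunits followed in H9, 12 of 18 other complex I genes rising and 2 falling, and 12 of 15 ATP synthase genes rising and 1 falling. Of all genes tested 25.4% rose and 26.1% fell. NDUFAB1, the mitochondrial acyl carrier protein, rose by 1.34 ± 0.12, the complex III hinge protein UQCRH by 1.18 ± 0.09, COX7B by 1.10 ± 0.10 and ATP5MC1, which encodes the ring subunit c, by 1.33 ± 0.11. NDUFA4L2, a hypoxia-induced relative of NDUFA4, had 8.45 ± 0.878 CPM in naive H9 cells and 0.393 ± 0.0989 CPM in primed H9 cells (SD, n = 3 each; 4.33 ± 0.30, edgeR adjusted p = 4.99e-10). Both ribosomal RNAs rose, MT-RNR2 by 0.68 ± 0.08 and MT-RNR1 by 0.67 ± 0.08. The nuclear regulators did not follow, with 2 higher and 4 lower of 8 tested and a median log2 change of -0.10. ESRRA rose by 0.81 ± 0.16 and PPARGC1B, a coactivator of nuclear respiratory genes, by 0.82 ± 0.15, while YY1 was among those that fell, by -0.58 ± 0.09.

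In the same contrast among H1 controls the mitochondrial genes divided by complex. Of 13, 8 rose and 3 fell, and of 37 nuclear genes, 20 rose and 9 fell, while 35.0% of all genes tested rose and 36.1% fell. The 3 that fell were the 3 mitochondrial subunits of complex IV. MT-CO3 had 6526, 5963 and 6018 CPM in naive H1 controls, against 7498, 7417 and 7637 CPM in primed H1 controls. MT-CO1, the catalytic subunit that reduces oxygen, had 8887, 8178 and 8049.5 CPM in naive H1 controls, against 10188, 9856 and 10186 CPM in primed H1 controls. MT-CO2, which receives electrons from cytochrome c, had 6846, 6193 and 6051 CPM in naive H1 controls, against 7375, 7042 and 7170.1 CPM in primed H1 controls. All naive libraries lay below all primed libraries for these genes (-0.30 ± 0.03, -0.28 ± 0.03 and -0.19 ± 0.03; SE; edgeR adjusted p = 7.47e-13, 4e-12 and 6.66e-07). The genes at the far end of the map rose. MT-ND6 had 1833, 1555 and 1634 CPM in naive H1 controls, against 959, 928 and 1077 CPM in primed H1 controls. MT-ND5, its neighbour on the other strand, had 5480.0, 4944 and 4980.2 CPM in naive H1 controls, against 3524, 3459 and 3659 CPM in primed H1 controls. MT-CYB, cytochrome b of complex III, had 5053, 4709 and 4639 CPM in naive H1 controls, against 3487, 3290.0 and 3536 CPM in primed H1 controls. These did not overlap, and changed by 0.74 ± 0.04, 0.52 ± 0.03 and 0.46 ± 0.03 (SE; edgeR adjusted p = 3.83e-24, 2.16e-21 and 2.07e-19). The 3 complex IV genes thus held 36.0% ± 0.2 of all mitochondrial mRNA counts in naive H1 controls and 45.5% ± 0.6 in primed H1 controls, and the 7 complex I genes 45.2% ± 0.1 in naive H1 controls and 37.6% ± 0.4 in primed H1 controls (SD, n = 3 each). With GC and length trends removed, the sign of MT-ND2 turned, to -0.09 from 0.10 as fitted, as did that of MT-ATP6, to -0.15 from 0.01, so that 5 mitochondrial genes passed as lower, and the mitochondrial median was 0.12. Both ribosomal RNAs were lower, MT-RNR1 by -0.51 ± 0.04 and MT-RNR2 by -0.13 ± 0.04.

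Among nuclear genes, NDUFV1 had 255, 275 and 273 CPM in naive H1 controls, against 84.6, 83.5 and 78 CPM in primed H1 controls. SDHC had 124, 116 and 110.4 CPM in naive H1 controls, against 48.3, 44.1 and 37 CPM in primed H1 controls. NDUFA9, which sits where the arms of complex I meet, had 29, 24.8 and 27.9 CPM in naive H1 controls, against 10.1, 10.9 and 10.3 CPM in primed H1 controls. The groups were far apart in all 3, by 1.69 ± 0.05, 1.42 ± 0.08 and 1.37 ± 0.14 (SE; edgeR adjusted p = 1.35e-37, 4.13e-26 and 7.58e-14). NDUFA8, whose promoter window holds the NRF1 motif, rose by 1.09 ± 0.08, and SDHD, the other such gene, changed by 0.02 ± 0.08 and did not pass. CYC1 had 79.5, 83.3 and 78.4 CPM in naive H1 controls, against 116, 108 and 118 CPM in primed H1 controls. NDUFS4, a subunit needed for a stable NADH-binding module, had 34.2, 30.8 and 32.2 CPM in naive H1 controls, against 43.3, 51.5 and 43.1 CPM in primed H1 controls. Both fell without overlap, by -0.52 ± 0.06 and -0.51 ± 0.09 (edgeR adjusted p = 5.93e-11 and 2.84e-06). SDHA, at 13, 17.6 and 14.8 CPM in naive H1 controls, against 25.1, 22.9 and 24.7 CPM in primed H1 controls, fell by -0.70 ± 0.13, but with its copies added the sum rose by 0.62, so its direction depended on whether the copies were added. NDUFV2 (-1.05 ± 0.49) likewise stood at 0.11 with its copy added. Complex III had 3 genes higher and 3 lower, and complex IV 6 higher, COX6C most (1.06 ± 0.06), and 3 lower, COX8A most (-0.35 ± 0.07). The 8 trophoblast markers summed to 236 to 249 CPM in naive H1 controls, against 37.8 to 49.3 CPM in primed H1 controls, with 5 of 6 tested higher, TFAP2C at 194 CPM and CGA at 0.216 CPM in naive cells. The fibroblast and feeder list summed to 305 to 316 CPM in naive H1 controls, against 277 to 294 CPM in primed H1 controls. Of the 4 tested, COL1A2 (299.8 CPM in naive and 152 CPM in primed H1 controls) was higher, and COL1A1 (6.74 and 122 CPM) and PDGFRB (0.770 and 11.6 CPM) were lower. Their part in these changes was not tested.

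The wider pathway was mixed in naive H1 controls. Other complex I subunits counted 9 higher and 4 lower of 18, NDUFAB1 rising by 1.53 ± 0.06 and NDUFV3 falling by -0.76 ± 0.10, and ATP synthase 10 higher and 5 lower of 15. Of all genes tested 35.0% rose and 36.1% fell. UQCRH rose by 1.22 ± 0.04. PPARGC1A, the coactivator that drives mitochondrial biogenesis in many tissues, had 39.4, 37.3 and 41.7 CPM in naive H1 controls, against 2.97, 4.93 and 4.58 CPM in primed H1 controls. That change of 3.27 ± 0.15 (edgeR adjusted p = 7.69e-29) was set against 5.95, 4.07 and 5.84 CPM in naive H9 cells and 7.92, 9.59 and 8.54 CPM in primed H9 cells, a fall of -0.70 ± 0.19 (edgeR adjusted p = 0.00485; the H9 value was chosen after it was seen). PPARGC1A and NDUFA4L2 thus moved in opposite directions in the lines, NDUFA4L2 by 4.33 ± 0.30 in H9 and -1.46 ± 0.42 in H1, a difference of 5.78 ± 0.51 (edgeR adjusted p = 6.25e-11). TWNK, the helicase of mitochondrial DNA, fell in both, by -0.58 ± 0.11 in H9 and -0.78 ± 0.09 in H1.

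The lines were then compared directly, by testing the naive over primed log2 change in H9 minus that in H1 over 12 libraries. Of the 50 genes, 27 were higher in naive cells of both lines, which is 62.8% of those higher in H9 and 96.4% of those higher in H1; 7 were mitochondrial and 20 nuclear. A further 7 were higher in naive H9 and lower in naive H1 cells, namely MT-CO1, MT-CO2, MT-CO3, SDHA, CYC1, COX5A and COX8A. With 43 of the 50 higher in H9 and 28 in H1, a large overlap follows from these counts alone. The shares of all genes tested that were higher in both lines, or opposite between them, were not computed. The difference passed for 29 of 50, with 22 larger in H9 (8 mitochondrial, 14 nuclear) and 7 smaller in H9 (1 mitochondrial, 6 nuclear), while 26.2% of all genes tested were larger and 23.6% smaller in H9. The mitochondrial count smaller in H9 was 3 when GC and length trends were removed. It was also 3 without primed H9 replicate 3, and 2 without primed H9 replicate 1 or primed H1 replicate 3. The median difference was 0.23 over mitochondrial and 0.25 over nuclear genes, beside 0.04 over all 17140 genes tested. MT-CO3 differed by 0.77 ± 0.07 (SE), MT-CO1 by 0.63 ± 0.07 and MT-CO2 by 0.44 ± 0.08 (edgeR adjusted p = 2.68e-10, 1.94e-08 and 2.56e-05). COX8A, the small complex IV subunit, differed by 0.89 ± 0.17 and CYC1 by 0.88 ± 0.11, while SDHC was -1.0 ± 0.13, its rise being larger in H1. The difference for SDHA, 1.12 ± 0.20, was -0.05 with its copies added. MT-ND4L, MT-ND5, MT-ND6 and MT-ATP8 had differences that did not pass. PPARGC1A differed by -3.97 ± 0.25 and MT-RNR1 by 1.17 ± 0.09 (edgeR adjusted p = 3.08e-14 and 7.75e-12). Line goes with count table, construct and doxycycline, and these cannot be told apart. The naive groups also differed in 10 primed markers, summing to 1678 to 1773 CPM in naive H9 cells and 949 to 970 CPM in naive H1 controls. Primed H9 cells had 4460 to 4472 CPM and primed H1 controls 3325 to 3434 CPM. SFRP2 averaged 68.7 CPM in naive H9 cells and 0.382 CPM in naive H1 controls, while OTX2 (24.7 and 61.8 CPM) and ZIC2 (5.36 and 13.2 CPM) were lower in naive H9 cells. The part of this in the differences was not tested.

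**Figure D4:**
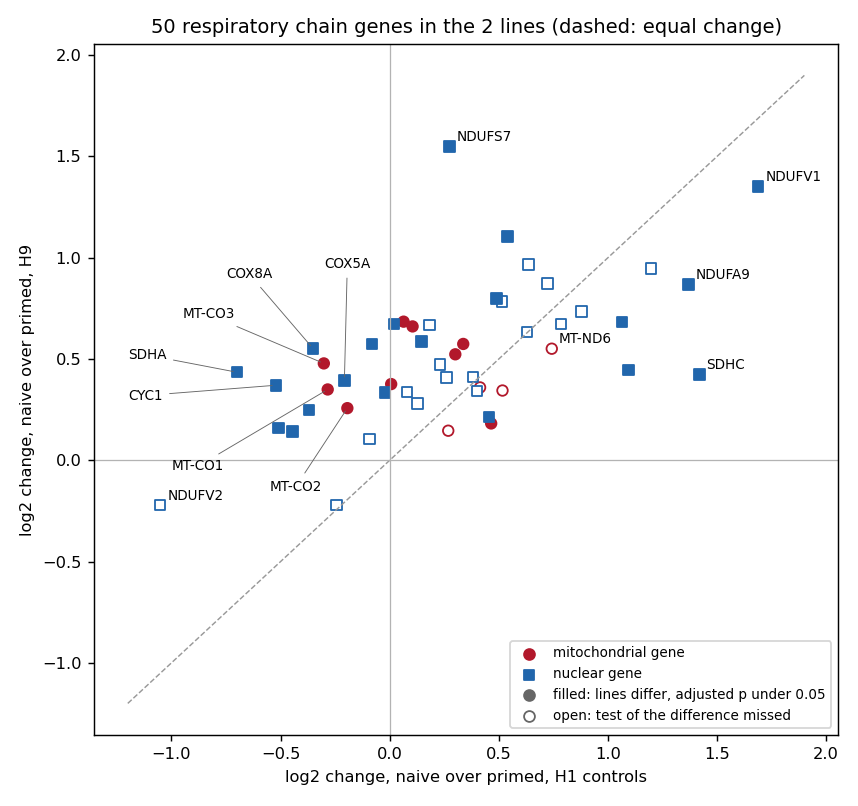
Log2 change of naive over primed cells in H9 (y axis) against that in H1 controls (x axis) for the 50 genes; circles are mitochondrial and squares nuclear, filled where the difference between lines has an adjusted p under 0.05, and the dashed line marks equal change. MT-CO1, MT-CO2 and MT-CO3 lie at the upper left, with SDHA, CYC1, COX5A and COX8A.

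**Figure D5:**
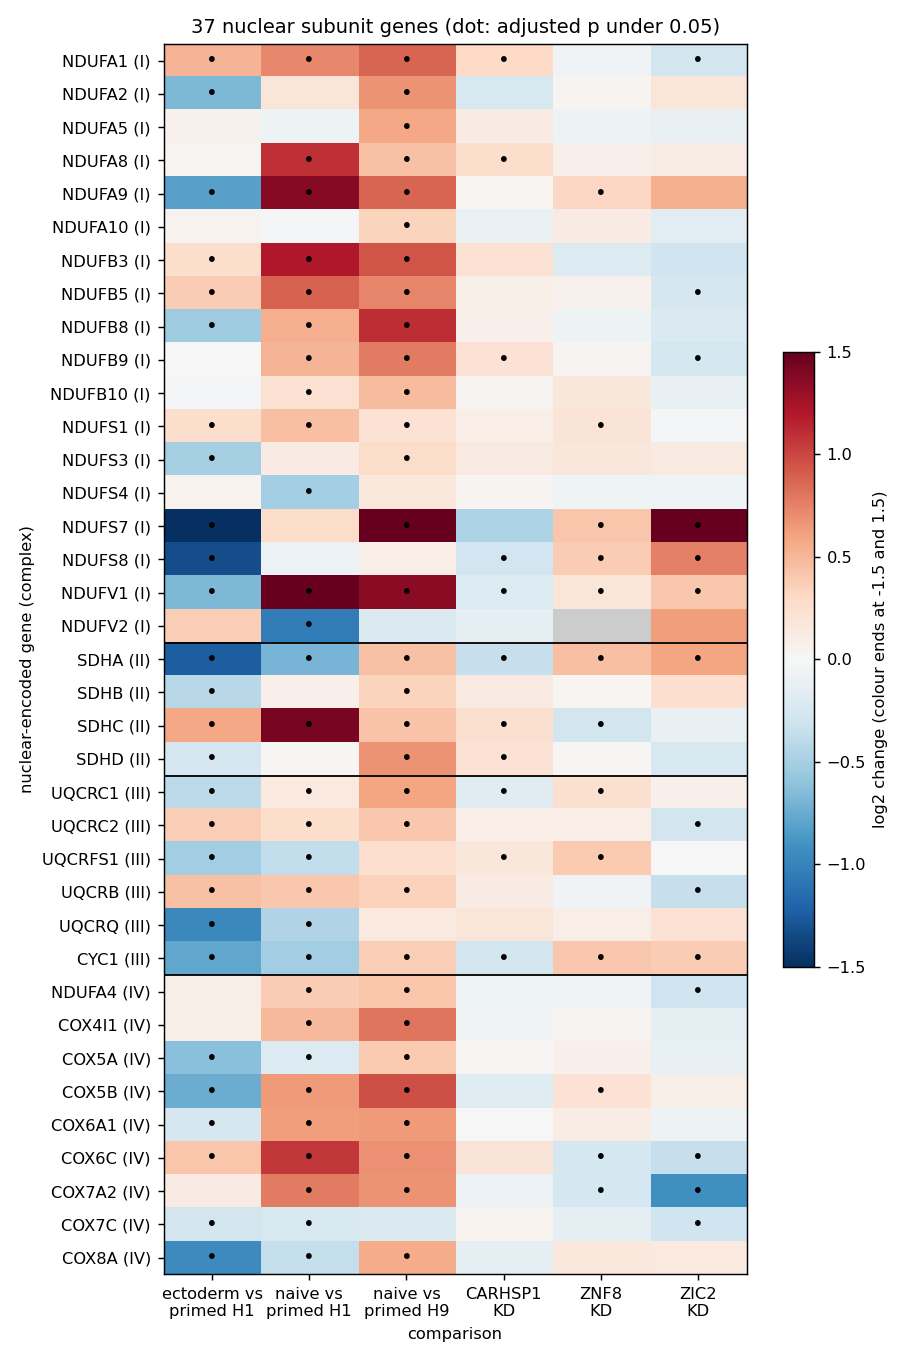
Log2 change (colour, ends at -1.5 and 1.5) of the 37 nuclear genes (rows, by complex) in the 6 comparisons (columns); a dot marks an adjusted p under 0.05 and grey a gene not tested. The H9 column holds 31 dots, all in red, and the ectoderm column 8 in red and 19 in blue.

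CARHSP1 knockdown, of an RNA-binding cold shock domain protein, was set against its control in primed H1 cells. Of mitochondrial genes 7 rose and 4 fell, and of nuclear genes 6 rose and 5 fell, while 10.3% of all genes tested rose and 9.87% fell. The summed share overlapped between groups, while its make-up differed. MT-ATP8, a small membrane subunit of ATP synthase, had 1798, 1890.4 and 1618 CPM in CARHSP1 knockdown, against 1057, 1032 and 1142 CPM in controls. MT-ATP6, the proton channel subunit read from the same message, had 5379.9, 6177 and 6439.8 CPM in CARHSP1 knockdown, against 4703, 4593 and 4906 CPM in controls. MT-ND3 had 678, 711 and 754 CPM in CARHSP1 knockdown, against 599, 572 and 624 CPM in controls. In each the knockdown libraries were all higher, by 0.71 ± 0.05, 0.34 ± 0.04 and 0.25 ± 0.04 (SE; edgeR adjusted p = 1.55e-15, 8.91e-08 and 4.39e-05). MTATP6P1, a nuclear copy of MT-ATP6, moved alike, by 0.42 ± 0.05. The 2 complex V genes held 13.6% ± 0.2 of mitochondrial mRNA counts in CARHSP1 knockdown and 10.7% ± 0.2 in controls, and the 7 complex I genes 34.1% ± 0.6 in CARHSP1 knockdown and 37.6% ± 0.4 in controls (SD, n = 3 each). MT-ND5 had 2692, 2909 and 3092 CPM in CARHSP1 knockdown, against 3524, 3459 and 3659 CPM in controls. MT-ND6 had 717, 861 and 859 CPM in CARHSP1 knockdown, against 959, 928 and 1077 CPM in controls. MT-CO1 had 8191, 9085 and 9181 CPM in CARHSP1 knockdown, against 10188, 9856 and 10186 CPM in controls. All 3 fell without overlap (-0.29 ± 0.04, -0.28 ± 0.05 and -0.19 ± 0.04; edgeR adjusted p = 5.42e-07, 9.35e-05 and 0.000107), although MT-CO2 and MT-CO3 of the same complex rose, by 0.22 ± 0.04 and 0.23 ± 0.03. Of the 11 mitochondrial calls 8 held under every alternative.

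The nuclear changes in CARHSP1 knockdown were small, between -0.48 and 0.30, and none of the 11 calls held under every alternative. NDUFA8 had 46.1, 50.6 and 49.8 CPM in CARHSP1 knockdown, against 39, 39.7 and 42.8 CPM in controls, and rose by 0.27 ± 0.08. SDHC (0.24 ± 0.09) and SDHD (0.22 ± 0.07), the membrane anchors of complex II, rose without overlap. SDHA (-0.34 ± 0.11), CYC1 (-0.27 ± 0.06) and UQCRC1 (-0.18 ± 0.05) fell without overlap, with edgeR adjusted p-values of 0.0253, 0.00104 and 0.0151. Leaving out knockdown replicate 2 alone ended the calls of NDUFA8, SDHA, SDHC and SDHD, and leaving out control replicate 1 that of UQCRC1. With GC and length trends removed, 3 of the 11 calls held, and rho between log2 change and GC content was -0.33 over the 15552 genes with a GC value. Of nuclear genes alone, none rose in edgeR without knockdown replicate 2 and 2 without any 1 of the controls, while 1 fell without control replicate 1 and 2 without control replicate 3 or knockdown replicate 2 or 3. Without knockdown replicate 2 the count over all 50 genes was 7 higher, without control replicate 2 it was 8 higher, and without control replicate 1 it was 5 lower, against 13 higher and 9 lower with all libraries. None of the 9 nuclear complex IV genes passed in edgeR (3 at an unadjusted p under 0.05, 0 in DESeq2). Of 7 naive markers tested 6 were lower, the list summing to 31.5 to 34.8 CPM in CARHSP1 knockdown, against 43.9 to 55.0 CPM in controls. The trophoblast list summed to 26 to 28.4 CPM in CARHSP1 knockdown, against 37.8 to 49.3 CPM in controls, with 1 of 3 tested lower, and the fibroblast and feeder list to 238 to 272 CPM in CARHSP1 knockdown, against 277 to 294 CPM in controls, with 2 of 4 tested lower. The part of these lists was not tested. In the wider pathway NDUFA4L2 stood at 0.307, 0.0895 and 0.158 CPM in CARHSP1 knockdown, against 2.23, 3.59 and 3.24 CPM in controls (-3.93 ± 0.52, edgeR adjusted p = 3.61e-07). SSBP1, which coats single-stranded mitochondrial DNA, rose by 0.35 ± 0.06, TFAM, which packages and starts transcription of it, by 0.22 ± 0.06, and the polynucleotide phosphorylase PNPT1, which degrades mitochondrial RNA, by 0.39 ± 0.07. Of the 38 assembly factors 37 were tested, and 6 rose and 0 fell, beside 10.3% and 9.87% of all genes tested. SCO1, a copper chaperone of complex IV, rose by 0.25 ± 0.06.

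ZNF8 knockdown, of a zinc finger protein, was set against its control in naive H1 cells, where ZNF8 RNA itself did not pass. Of mitochondrial genes 9 rose and none fell in edgeR (0 also at an unadjusted p under 0.05 and in DESeq2), and of the 36 nuclear genes tested 10 rose and 3 fell, NDUFV2 being too low to test, while 11.9% of all genes tested rose and 12.3% fell. The nuclear count higher was 6 with all H1 groups in 1 fit and 6 without control replicate 1. MT-ND1 had 3214, 3707 and 3557 CPM in ZNF8 knockdown, against 2258, 2219 and 2054 CPM in controls. MT-ND2 had 4312, 4999 and 5017 CPM in ZNF8 knockdown, against 3329.7, 3050.4 and 3004 CPM in controls. MT-ATP6 had 6519, 7843 and 7637 CPM in ZNF8 knockdown, against 5254, 4535 and 4646 CPM in controls. The knockdown libraries were all above the controls, by 0.67 ± 0.05, 0.60 ± 0.05 and 0.59 ± 0.05 (SE; edgeR adjusted p = 2.3e-14, 1.61e-12 and 1.07e-11), and knockdown replicate 1 was the lowest of its group in each. None of the 3 mitochondrial complex IV genes passed in edgeR (1 at an unadjusted p under 0.05, 0 in DESeq2). Their log2 changes were -0.06 ± 0.04 for MT-CO1, 0.01 ± 0.05 for MT-CO2 and 0.12 ± 0.04 for MT-CO3 (edgeR adjusted p = 0.372, 0.935 and 0.0532). They held 30.1% ± 0.2 of mitochondrial mRNA counts in ZNF8 knockdown and 36.0% ± 0.2 in controls (SD, n = 3 each). MT-ND6 (0.11 ± 0.05) did not pass and MT-ND5 (0.15 ± 0.05) rose with overlap, a call lost with all H1 groups in 1 fit and without control replicate 2 or 3 or knockdown replicate 3. The large ribosomal RNA MT-RNR2 fell by -0.16 ± 0.04, while MT-RNR1 did not pass in edgeR and the median of the 2 was -0.02.

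In complex II the nuclear genes parted in ZNF8 knockdown. SDHA had 19.6, 21.5 and 21.7 CPM in ZNF8 knockdown, against 13, 17.6 and 14.8 CPM in controls, and rose by 0.45 ± 0.13 (0.43 with its copies). SDHC had 97, 96.3 and 99.4 CPM in ZNF8 knockdown, against 124, 116 and 110.4 CPM in controls, and fell by -0.28 ± 0.06. The groups did not overlap for either (edgeR adjusted p = 0.00898 and 0.000983), and the call of SDHA was lost without control replicate 1. NDUFS7 (0.42 ± 0.14) and CYC1 (0.40 ± 0.07) rose without overlap, that of NDUFS7 being lost with all H1 groups in 1 fit and without control replicate 1 or 2 or knockdown replicate 1. The complex IV subunits COX6C (114, 117 and 117 CPM in ZNF8 knockdown, against 136, 133 and 144 CPM in controls) and COX7A2 (145, 139 and 143 CPM in ZNF8 knockdown, against 172, 164 and 170.3 CPM in controls) fell by -0.26 ± 0.06 and -0.26 ± 0.06 without overlap. FASTK, which acts on mitochondrial RNA, rose by 0.45 ± 0.10 and LRPPRC, which stabilises mitochondrial mRNAs, by 0.16 ± 0.05. Naive markers were lower, 480 to 491 CPM summed in ZNF8 knockdown, against 783 to 816 CPM in controls, with 9 of 11 lower and none higher. The fibroblast and feeder list summed to 392 to 428 CPM in ZNF8 knockdown, against 305 to 316 CPM in controls, with 3 of 7 genes tested, all 3 higher, almost all of it COL1A2, and LUM, DCN and COL3A1 at 0 in knockdown. The trophoblast list summed to 207 to 220.1 CPM in ZNF8 knockdown, against 236 to 249 CPM in controls. Of the 6 tested, GATA3 (0.332 CPM in knockdown and 16.8 CPM in controls), HAND1 (0.492 and 6.53 CPM), VTCN1 (0.170 and 3.53 CPM) and KRT7 (2.27 and 8.63 CPM) were lower, while TFAP2C, at 199.6 and 194 CPM, did not pass. The part of any of these lists in the respiratory genes was not tested. These control libraries also served the naive against primed H1 comparison, so the results of the 2 are not independent.

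ZIC2 knockdown, of a zinc finger factor of early neural development, was set against its control in day 2 ectoderm. Of mitochondrial genes 1 rose and 4 fell, and of nuclear genes 5 rose and 9 fell, while 15.3% of all genes tested rose and 12.8% fell. The mitochondrial counts turned on the processing: with GC and length trends removed 4 rose and 3 fell, MT-ND2, MT-ND3 and MT-ATP8 joining MT-ATP6 (median -0.02, against -0.12 as fitted), and 3 rose with all H1 groups in 1 fit and with no count filter. Without knockdown replicate 1, 3 rose, without control replicate 1 or 3, 2 rose, and without knockdown replicate 3, 7 fell. MT-ATP6 had 1761, 2006 and 2367 CPM in ZIC2 knockdown, against 1698, 1553 and 1357 CPM in controls, and rose without overlap by 0.41 ± 0.08 (edgeR adjusted p = 0.000867). MT-CO1 had 2164, 2490.2 and 2633 CPM in ZIC2 knockdown, against 4166, 4066 and 3565 CPM in controls. MT-ND5 had 989.9, 1185 and 1299 CPM in ZIC2 knockdown, against 1904, 1755 and 1473 CPM in controls. MT-ND6 had 198, 236 and 275 CPM in ZIC2 knockdown, against 395, 361 and 291 CPM in controls. All knockdown libraries lay below all controls, by -0.70 ± 0.07, -0.57 ± 0.09 and -0.56 ± 0.10 (SE; edgeR adjusted p = 6.53e-08, 2.95e-05 and 0.000182). MT-CO3 (-0.19 ± 0.07) fell with overlap, a call lost in DESeq2, under both other scalings, with the GC trend removed, and without replicate 1 or 2 of either group, and MT-CO2 (-0.18 ± 0.07) did not pass. MT-CO1 alone was 13.9% ± 0.5 of mitochondrial mRNA counts in ZIC2 knockdown and 19.8% ± 0.2 in controls, and MT-ATP6 11.7% ± 0.3 in ZIC2 knockdown and 7.71% ± 0.23 in controls (SD, n = 3 each). MT-RNR2 fell by -1.10 ± 0.06, to 939.8 ± 35.8 CPM in ZIC2 knockdown, against 2008 ± 174 CPM in controls (SD, n = 3 each). MT-RNR1, the other mitochondrial ribosomal RNA, did not pass in edgeR, and the median log2 change of the 2 was -0.58.

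Of nuclear genes, NDUFS7 had 20.8, 8.21 and 8.10 CPM in ZIC2 knockdown, against 4.49, 2.75 and 3.41 CPM in controls. NDUFS8 had 41.2, 26.5 and 26.1 CPM in ZIC2 knockdown, against 20.8, 16 and 19 CPM in controls. SDHA had 18, 14.6 and 14.5 CPM in ZIC2 knockdown, against 8.54, 11.7 and 10.6 CPM in controls. In all 3 the knockdown libraries were higher and replicate 1 stood highest, with log2 changes of 1.82 ± 0.32, 0.75 ± 0.16 and 0.59 ± 0.17 (SE; edgeR adjusted p = 0.000209, 0.00145 and 0.0142). Without knockdown replicate 1 the change of NDUFS7 was 1.23 and still passed, while SDHA lost its call, as it did without control replicate 1 and with its copies added (0.37). COX7A2, a complex IV subunit with tissue-specific relatives, had 52.8, 55.7 and 60.2 CPM in ZIC2 knockdown, against 101, 104 and 114 CPM in controls. COX6C had 70.5, 67.2 and 69.1 CPM in ZIC2 knockdown, against 89.5, 86.9 and 86.6 CPM in controls. UQCRB had 192, 209 and 217 CPM in ZIC2 knockdown, against 256, 245 and 283 CPM in controls. Knockdown libraries were the lower ones throughout, by -0.92 ± 0.08, -0.35 ± 0.08 and -0.35 ± 0.07 (edgeR adjusted p = 1.29e-08, 0.00137 and 0.000564). The same ectoderm controls served the ectoderm against primed comparison, where NDUFS7, NDUFS8 and SDHA fell and UQCRB and COX6C rose. Results of these comparisons are therefore not independent, and the part of the shared controls in the opposite directions was not tested. ATP synthase subunits counted 1 higher and 7 lower of 15, beside 15.3% and 12.8% of all genes tested, ATP5MC2 falling by -0.41 ± 0.06. Of 9 regulators 1 rose and 1 fell, PPRC1 by 0.32 ± 0.07 and GABPA by -0.39 ± 0.10. Changes again went with GC content, with rho 0.33 over the 14941 genes with a GC value and 0.56 over the 37 nuclear members, and 9 of 14 nuclear calls held with the trend removed, CYC1 turning to -0.05. The ectoderm list summed to 441 to 514 CPM in ZIC2 knockdown, against 577 to 643 CPM in controls, with 1 of 5 tested lower, and the fibroblast and feeder list to 223 to 255 CPM in ZIC2 knockdown, against 130.3 to 146 CPM in controls, with 2 of 3 tested higher and LUM, DCN, COL3A1 and POSTN at 0 in both. The trophoblast list summed to 64.8 to 70.3 CPM in ZIC2 knockdown, against 49.3 to 57.9 CPM in controls, with TFAP2C (56.0 CPM in knockdown and 42.5 CPM in controls) and GATA3 (2.17 and 0 CPM) higher of 3 tested. Naive markers summed to 16.8 to 18.4 CPM in ZIC2 knockdown, against 8.50 to 12.2 CPM in controls, with KLF5 (6.24 and 1.94 CPM) and TFCP2L1 (4.47 and 1.66 CPM) higher of 4 tested. Their part in these changes was not tested.

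MT-ND5 and MT-ND6 lie next to each other on opposite strands and can be read side by side. MT-ND5 changed by -1.07 in ectoderm, 0.34 in naive H9, 0.52 in naive H1, -0.29 in CARHSP1, 0.15 in ZNF8 and -0.57 in ZIC2 knockdown, and MT-ND6 by -1.52, 0.55, 0.74, -0.28, 0.11 and -0.56 in the same order. The libraries were made with a stranded kit, but no source used here gives the strand setting of the counting, so reads of one may have been counted for the other. The primed H1 controls served the CARHSP1, naive H1 and ectoderm comparisons, and the ectoderm controls those of ectoderm and ZIC2, so these values are not independent and no correlation between them was computed.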

How the data were processed

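RNA-seq of polyadenylated RNA from 24 libraries was used, with libraries made by a stranded mRNA kit per the labels' protocols and aligned with HISAT2 to GRCh38 per the submitters' processing notes. No source used here gives the aligner's version, the counting tool or the annotation. The authors deposited whole-number read counts per gene without normalization, in 1 table for H1 and 1 for H9, and a gene length used for TPM. The H1 table holds 27 further columns that match no sample described here and were not used. Groups came from sample titles. Of 60671 listed genes, 60401 had a symbol and 58453 were found in GENCODE 29.

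Each comparison was fitted on its 2 groups (the line comparison on 12 libraries) with edgeR 4.0.16 in R 4.3.3 by filterByExpr, TMM scaling and the 2-sided quasi-likelihood F test, Benjamini-Hochberg adjusted over all genes tested, with a threshold of 0.05. SE is the log2 change divided by the root of F. Levels are CPM scaled by TMM over all 24 libraries. Shares of counts were compared by exact permutation tests (scipy 1.17.1). The biological coefficient of variation ran from 6.13% to 9.67%. The fits were checked on simulated data. Replicates differed by a chi-square of 2.44 to 9.16 per degree of freedom, so none looked like a repeated library.

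Ranges over libraries are given for the 3 targets. Values per library are given, apart for mitochondrial and nuclear genes, for up to 3 higher and 3 lower genes with the largest log2 change that passed without overlap. From each further list up to 3 genes with the smallest adjusted p are named. Other genes named, such as COX7C and the PPARGC1A value in H9, were chosen after their values were seen. The members and lists were chosen with earlier results of these data known. The alternatives were DESeq2 1.42.0, RLE scaling, no count filter, mitochondrial genes left out of library sizes, all H1 groups in 1 fit, GC and length trends removed by splines per library, the replicate number as a block, each library left out, and, added after seeing the data, counts of named copies added.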

Additional observations from a re-analysis of the deposited data

Results flagged for a closer look

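For 29 of the 50 genes the naive over primed change differed between the lines by edgeR's interaction test with Benjamini-Hochberg adjustment (H9 minus H1, log2). It was larger in H9 for 22 and smaller for 7, while 26.2% of all genes tested were larger and 23.6% smaller in H9. Among mitochondrial genes the differences were 0.61 for MT-ND1, 0.55 for MT-ND2, 0.21 for MT-ND3, 0.23 for MT-ND4, -0.29 for MT-CYB, 0.63 for MT-CO1, 0.44 for MT-CO2, 0.77 for MT-CO3 and 0.36 for MT-ATP6. Among complex I genes they were 0.65 for NDUFA5, -0.66 for NDUFA8, -0.51 for NDUFA9, 0.35 for NDUFA10, 0.55 for NDUFB8, -0.25 for NDUFS1, 0.66 for NDUFS4, 1.26 for NDUFS7 and -0.35 for NDUFV1. Complex II gave 1.12 for SDHA, -1.0 for SDHC and 0.65 for SDHD, and complex III 0.43 for UQCRC1, 0.61 for UQCRFS1, 0.57 for UQCRQ and 0.88 for CYC1. Complex IV gave 0.30 for COX4I1, 0.59 for COX5A, -0.39 for COX6C and 0.89 for COX8A. With GC and length trends removed all 9 mitochondrial and 16 of the 20 nuclear differences held. The call for MT-ND3 was lost without any of 8 of the 12 libraries left out singly, that for MT-ND4 without any of 3. Line cannot be told apart from table, construct and doxycycline, and the naive groups of the lines also differed in their primed markers.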

How the results depend on the processing

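The counts over all 50 genes in ZNF8 and ZIC2 knockdown, naive H1, ectoderm and the line comparison stayed within 1.5 times under every alternative run, but some counts of mitochondrial or nuclear genes alone did not. The mitochondrial count higher in ZIC2 knockdown was 1 to 4, that lower in naive H1 was 5, against 3, and that smaller in H9 was 3, against 1, with GC and length trends removed, also with the block added; the nuclear count higher in ZNF8 knockdown was as low as 6, against 10. In CARHSP1 knockdown 2 nuclear genes rose and 3 fell with GC and length trends removed, 3 and 3 in DESeq2 and 2 and 2 with all H1 groups in 1 fit, against 6 and 5. Over all 50 genes in CARHSP1 knockdown, all H1 groups in 1 fit gave 8 higher and 5 lower, against 13 and 9, and leaving out each library gave 7 to 12 higher and 5 to 10 lower. In naive H9 cells 1 gene fell, against none as reported from edgeR, with GC and length trends removed, with no count filter, with the replicate block and with that block and GC trends removed, and 0 to 1 when each library was left out. With ribosomal RNA added, the difference in mitochondrial share in H9 was 1.79 percentage points, against 1.39. The replicate numbers did not pair the samples (same-number correlations as low as -0.19, and every library closest to its own number only in CARHSP1 knockdown), and the block alone moved no other count over all 50 genes by over 1.5 times, though the mitochondrial count higher in ZIC2 knockdown was 2 with it, against 1. Signs turned with GC and length trends removed, and with the block added, for CYC1 (-0.050 and -0.047) in ZIC2 knockdown, MT-CYB (-0.006 and -0.005) in naive H9, MT-ND2 (-0.087 and -0.087) and MT-ATP6 (-0.147 and -0.149) in naive H1, and NDUFB10 (0.421 and 0.406), UQCRC1 (0.036 and 0.039) and CYC1 (0.094 and 0.092) in ectoderm. With named copies added they turned for NDUFV2 (0.110) and SDHA (0.617) in naive H1 and SDHA (-0.053) between lines. Over single genes, 5060 values kept sign and side of the threshold, 114 gained and 244 lost a call and 17 turned; the cause was not tested. Nuclear genes near 5 counts, such as NDUFV2, cannot show small changes at this depth.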

Other observations

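Assembly factors, which build the complexes and are not part of them, were not described for every comparison. Of 37 tested in naive H1 cells, 12 rose and 10 fell, beside 35.0% and 36.1% of all genes tested; NDUFAF7, a methyltransferase for complex I, rose by 0.97 ± 0.07 and NDUFAF2 fell by -1.51 ± 0.15. In ectoderm 9 rose and 13 fell of 37, beside 30.7% and 32.1% of all genes tested, with UQCC2, for complex III, rising by 0.81 ± 0.10 and COX15, for heme a synthesis, by 0.53 ± 0.09. In naive H9 cells 10 of 36 rose and 3 fell (25.4% and 26.1% of all genes tested), and in ZNF8 knockdown 5 of 37 rose and 2 fell (11.9% and 12.3%). In ZIC2 knockdown 1 of 37 rose and 4 fell (15.3% and 12.8% of all genes tested), UQCC2 by -0.48 ± 0.12 (SE; edgeR adjusted p = 0.00412).

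Of 18 genes for processing and stability of mitochondrial RNA, 8 rose and 1 fell in naive H9 cells, beside 25.4% and 26.1% of all genes tested. In naive H1 cells 8 rose and 5 fell, beside 35.0% and 36.1% of all genes tested, with a median log2 change of 0.08. GRSF1, which binds mitochondrial RNA granules, rose in both, by 0.44 ± 0.08 in H9 and 0.57 ± 0.05 in H1. REXO2 fell by -1.03 ± 0.09 and PNPT1 rose by 0.67 ± 0.07 in naive H1 cells. COX7A2L, which acts in supercomplex assembly, rose by 0.72 ± 0.06 in ectoderm and 0.26 ± 0.06 in CARHSP1 knockdown and fell by -0.34 ± 0.07 in ZIC2 knockdown; the first shares primed controls with the second and ectoderm controls with the last.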
